A study of Homo sapiens with 12 samples.

Results

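The 8 genes described here encode ligands that natural killer (NK) cells recognise on other cells, measured by total RNA-seq in A549 cells. They were chosen by name, with earlier results of these data known, and for each symbol the row with the highest mean was taken. Each of the 8 symbols had 1 row, so all 8 were found among the 22564 genes analysed. By receptor, NCR3LG1 is a ligand of NKp30, the genes MICA, MICB, ULBP1, ULBP2 and ULBP3 encode ligands of NKG2D, and PVR and PVRL2 (now NECTIN2) encode ligands of DNAM-1. A549 is an established line of human lung adenocarcinoma cells. Both groups were A549 cells transfected with siRNA at 40 nM for 48 to 72 h. The siRNA was against YTHDC1, the nuclear reader of N6-methyladenosine (m6A), in 6 libraries (siYTHDC1), and a scrambled control in the other 6 libraries (siSCR). No further treatment is given in the labels, which do not tie the libraries to separate cultures.

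NK cells kill stressed, infected or transformed cells without prior priming, and weigh signals from activating and inhibitory receptors. NKG2D binds MHC class I-like proteins that appear on stressed cells, NKp30 binds the B7 family protein B7-H6 (the product of NCR3LG1), and DNAM-1 binds adhesion molecules of the nectin family.

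The measurement used here was 1 value per gene, the authors' mean of the normalized counts over all 12 libraries, siYTHDC1 and siSCR together. It gives the level of a ligand in this experiment as a whole. It holds neither a spread between libraries nor a level in each group, so no error, n or test is attached to it, and siYTHDC1 and siSCR were not compared here. For the same reason, the depletion of YTHDC1 itself was not examined, and these values do not show how deeply any library was sequenced. Being a bulk measure, it cannot tell fewer cells with a transcript from less RNA per cell. To set genes beside each other, the mean was divided by the length of all annotated exons of the gene merged together (the exon union), which gave a level in normalized counts per kb. Among 14100 protein-coding genes this level had a median of 58.6 per kb, with quartiles of 13.0 and 140.1.

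All 5 genes listed as epithelial markers were measured. Each except EPCAM lay above the median of protein-coding genes, and the level of EPCAM exceeded that of 32.6% of them. The keratin genes KRT8 and KRT18 had levels of 4011 and 4858 per kb, KRT19 288 per kb, and the adhesion genes CDH1 and EPCAM 166 and 24.0 per kb. Of 10 marker genes of NK and T lymphocytes, 1 was measured and 9 were not analysed here. The measured one, CD226, encodes DNAM-1 itself and had a mean normalized count of 38.3, or 2.81 per kb of exon, a level higher than that of 12.4% of the protein-coding genes.

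DNAM-1 ligands were the most abundant of the 8. PVR (CD155, the poliovirus receptor) had a mean normalized count of 2083, and PVRL2 (CD112) one of 1125, while the others lay between 15.2 and 422. Per kb of exon the order of both was the opposite, with 301 for PVRL2 and 200 for PVR, because the exon union of PVR spans 10427 bases and that of PVRL2 3742. These levels exceeded those of 90.4% and 83.4% of protein-coding genes. Together, the pair held 79.4% of the level per kb summed over the 8 genes. PVR and PVRL2 lie on the same strand of chromosome 19, at 45147098 to 45169430 and 45349432 to 45392480 (GRCh37), with 180 kb between them.

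NCR3LG1 stood in the middle. Its product B7-H6 is absent from most healthy tissues and engages NKp30. The gene (ENSG00000188211.4, plus strand of chromosome 11, 17373347 to 17398888) had a mean normalized count of 422 and a level of 66.3 per kb, above 53.1% of protein-coding genes. PVRL2 lay 4.53-fold and PVR 3.01-fold above it per kb of exon union. These ratios were 6.31 and 4.86 with the longest transcript as the length, and 17.9 and 10.2 with the median coding transcript. NCR3LG1 in turn lay 3.31-fold above MICB, the NKG2D ligand with the highest level per kb of exon union. Its annotation holds 2 transcripts, of which 1 is protein-coding, so its own level was the same with each of the 3 lengths. The share of protein-coding genes below it was computed with the exon union alone. Its place among genes under the other lengths was not examined.

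All 5 NKG2D ligands had lower levels than NCR3LG1 and both DNAM-1 ligands. MICA and MICB, which encode the stress-induced MHC class I-like chains, had mean normalized counts of 59.7 and 56.0. ULBP1, ULBP2 and ULBP3, which encode UL16-binding proteins, had 26.4, 15.2 and 26.4. Per kb of exon, MICB had 20.01, MICA 15.5, ULBP2 11.4, ULBP3 8.49 and ULBP1 8.24. These levels exceeded those of 20.7% to 29.8% of protein-coding genes. Ranked only among the 12454 protein-coding genes whose mean reached 10, they exceeded 10.4% to 20.5%. The highest of the 8, PVRL2, was 36.5-fold above the lowest, ULBP1.

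The order within the NKG2D ligands was not settled by these values. With the longest annotated transcript as the length, MICA had 26.4 and MICB 23.2 per kb, so that MICA was the higher of the pair. With the median length of the protein-coding transcripts, MICA had 50.3 against 23.2 for MICB, and ULBP3 had 13.7 against 11.4 for ULBP2. MICA has 8 annotated transcripts with an exon union of 3851 bases, and MICB has 4 with 2798 bases. In contrast, PVRL2, PVR and NCR3LG1 kept their places at the top of the order, in this sequence, under each of the 3 lengths, ahead of all NKG2D ligands. The level per kb of PVRL2 lay between 301 and 1185 and that of PVR between 200 and 677 across these lengths.

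**Figure D1:**
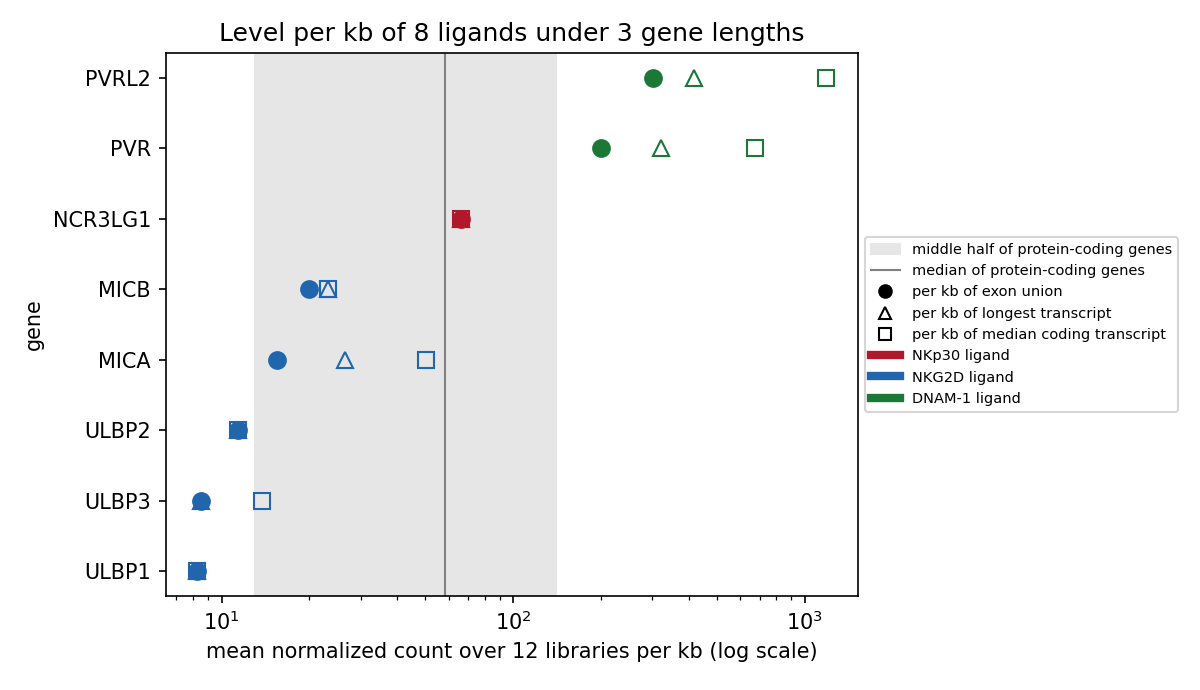
Level of each ligand (rows) as the authors' mean normalized count over 12 libraries per kb (x axis, log scale), coloured by receptor, with a filled circle, a triangle and a square for 3 choices of gene length, and a grey band from the lower to the upper quartile of 14100 protein-coding genes. The band was computed per kb of exon union only. It is a background for the circles and not for the triangles and squares. The circles of PVRL2 and PVR lie right of the band and that of NCR3LG1 near the median at 66.3. MICA moves from 15.5 to 50.3 with the length used.

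The NKG2D ligands sit in 2 clusters on chromosome 6, and they resemble each other in sequence, which bears on how their reads could be counted. MICA (31367561 to 31383092) and MICB (31462658 to 31478901) lie 79.6 kb apart in the MHC region, on the plus strand. ULBP2 (150263150 to 150270371), ULBP1 (150285079 to 150294851) and ULBP3 (150382189 to 150390257, minus strand) lie next to RAET1E and RAET1G, which encode further NKG2D ligands. In the coding sequences of the canonical transcripts, MICA and MICB had 911 identical and 78 differing bases where they could be aligned. ULBP1 and ULBP2 had 572 identical and 160 differing bases, and ULBP2 and ULBP3 had 541 and 188. Of the genes aligned, RAET1G had the fewest differing bases against ULBP2, with 698 identical and 40 differing. That alignment also held 264 gap columns. With gaps counted, identity was 69.7% for ULBP2 and RAET1G and 77.5% for ULBP1 and ULBP2. RAET1L was not aligned, so the gene closest to ULBP2 was not determined. PVR and PVRL2 were less alike, with 873 identical and 365 differing bases.

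The longest coding runs that MICA shares with MICB, and ULBP2 with RAET1G, are shown as examples of stretches in which the genes cannot be told apart. Only the canonical coding sequences were compared for this, and other shared stretches exist, as the windows below show. Both runs are shorter than a read of 150 bases. The first lies in 1 exon of each gene (chr6:31379856-31379926 in MICA and chr6:31474931-31475001 in MICB, plus strand, GRCh37) and has 71 bases. The second has 121 bases, coding bases 82 to 202 of both genes, and crosses a splice junction (chr6:150263290-150266561 in ULBP2, plus strand, intron included). The letters are those of the reference genome, 5′ to 3′ in the direction of transcription, in lower case throughout as no part is marked.
MICA and MICB: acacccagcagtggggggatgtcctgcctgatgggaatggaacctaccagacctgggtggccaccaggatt
ULBP2 and RAET1G: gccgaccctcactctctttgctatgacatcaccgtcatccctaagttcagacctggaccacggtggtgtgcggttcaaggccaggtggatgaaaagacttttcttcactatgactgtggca

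How far such copies reach was measured by looking up every window of an exon, at a fixed length, in the whole GRCh37 primary assembly on both strands. At 150 bases, the length of 1 read of a pair in the study's methods, no exonic window of NCR3LG1, MICA, MICB, ULBP1, ULBP2, PVR or PVRL2 had an exact copy elsewhere. ULBP3 was the exception, with copies of 88 of 2392 windows (3.68%), and the 6 chromosomes with most of these copies held them outside annotated exons. At 75 bases, the share was 16.4% for ULBP2, 11.5% for ULBP3, 4.75% for ULBP1, 3.52% for PVRL2, 2.19% for MICB and 0.46% for MICA, and it was 0 of 5994 windows for NCR3LG1 and 0 of 9909 for PVR. Of the 158 repeated windows of ULBP2, 135 had a copy in RAET1L and 66 in RAET1G. For MICB, 48 of 50 had a copy in MICA, while the copies of PVRL2 windows lay on chromosome 3, 20 of 106 of them in the exons of the pseudogene NECTIN2P1. At 75 and 50 bases NCR3LG1 and PVR had the lowest shares and ULBP2 and ULBP3 the highest. At 150 bases ULBP2 had 0 of 612 windows with a copy, as NCR3LG1 and PVR had none. Each window lay within 1 merged exon, so exons shorter than the window were not searched. Stretches across a splice junction, such as the whole run of ULBP2 and RAET1G above, were not searched either. What share of reads was lost or moved in this way was not tested.

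**Figure D2:**
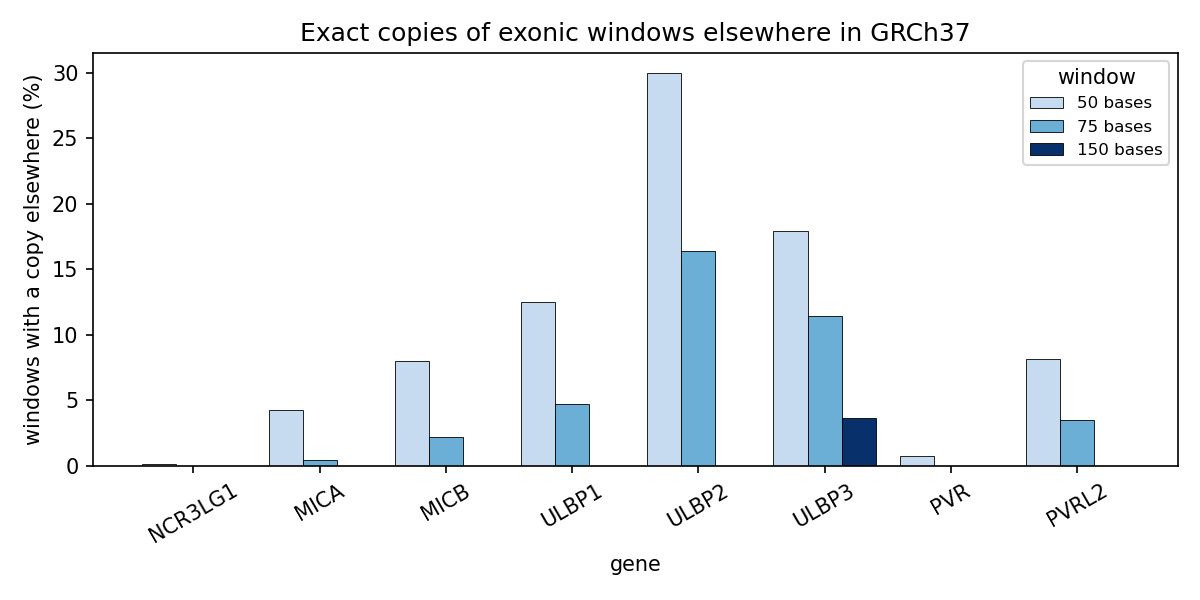
Share of exonic windows with an exact copy elsewhere in GRCh37 (y axis, percent) for each ligand (x axis), with 1 bar for each window length of 50, 75 and 150 bases. At 75 bases ULBP2 reaches 16.4% and ULBP3 11.5%, while NCR3LG1 and PVR have none, and at 150 bases ULBP3 alone keeps a bar.

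In GENCODE release 44, which is later than the annotation used for counting, exons of other genes overlapped those of 4 of the ligands. Whether these overlaps were present in the older annotation was not examined. The largest overlap was in PVR, where 2029 bases (19.5% of its exon union) are also annotated to ENSG00000279095, a transcript of uncertain status on the same strand. In MICA, MICB and PVRL2 no single other gene took more than 3.42% of the exonic bases. KCNJ11, a potassium channel gene on the opposite strand at the NCR3LG1 locus, shared no exonic base with it. Whether reads were counted by strand is not given in the sources used here.

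Since YTHDC1 binds m6A, the word GGACT, a frequent context of m6A, was counted in the sense strand of the longest protein-coding transcript. Among 14048 protein-coding genes, 92.5% of such transcripts held it at least once, and its median density was 0.93 per kb with quartiles of 0.58 and 1.38. ULBP3 had the highest density of the 8 ligands, 2.25 per kb, with 2 words in the coding part and 5 in the 3′ UTR of a transcript of 3111 bases. NCR3LG1 came next, with 10 words in 6364 bases or 1.57 per kb, 3 in the coding part and 7 in the 3′ UTR. The 2606 transcripts of like length, 5092 to 7955 bases, held a median of 5 words. The densities of ULBP3 and NCR3LG1 exceeded those of 94.9% and 82.3% of genes. PVRL2 (1.12 per kb), PVR (1.04), ULBP1 (0.93), MICA (0.88) and ULBP2 (0.75) lay between the quartiles, and MICB, with 1 word in 2416 bases, was below them at 0.41. With the exon union in place of the transcript, the order differed. PVRL2 had 1.87 per kb and passed NCR3LG1, and PVR at 1.343 and MICA at 1.30 per kb lay just above the upper quartile of 1.29 for that measure. A word is a match of letters and not a methylated site, and m6A was not measured in these libraries.

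The words of NCR3LG1, ULBP2 and ULBP3 are shown with 12 bases on either side, taking the one nearest to the stop codon among those that lie with these bases in a single coding exon, with the word in capitals, 5′ to 3′ along the transcript (GRCh37). That of NCR3LG1 is at chr11:17390461-17390489 (plus strand), that of ULBP2 at chr6:150267731-150267759 (plus strand), and that of ULBP3 at chr6:150386558-150386586 (minus strand). In ULBP2 and ULBP3 the word starts at base 585 of 738 and base 588 of 732 of the coding part, in similar surroundings.
NCR3LG1: ttcattggtgttGGACTggttttattaat
ULBP2: aggatggcttgaGGACTtcttgatgggca
ULBP3: gagctggcttagGGACTtcctgatgcaca

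**Figure D3:**
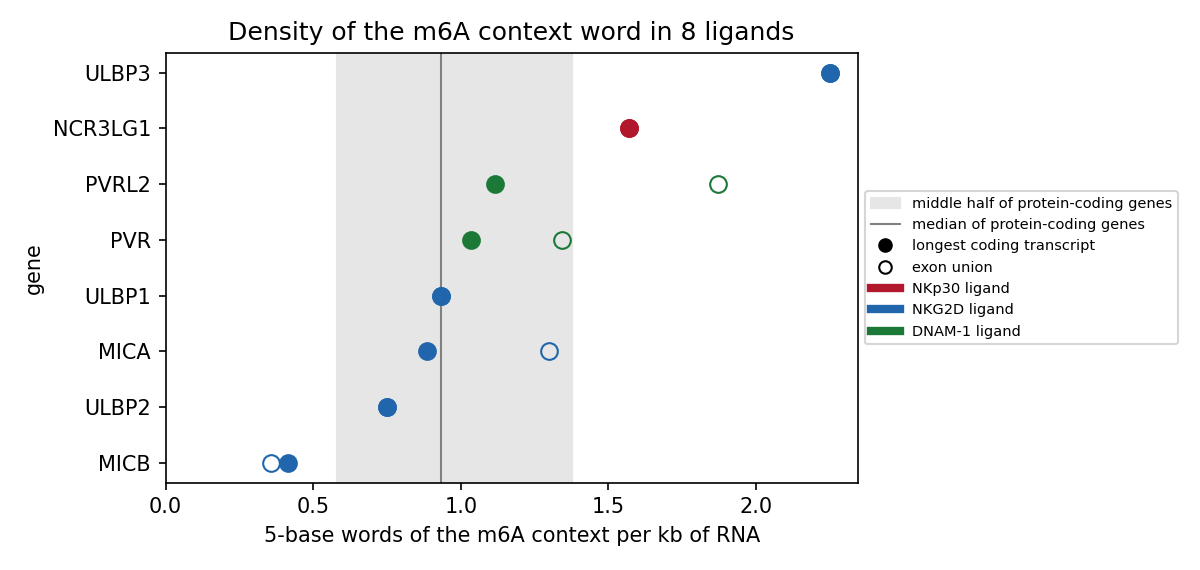
Words of the sequence GGACT per kb of RNA (x axis) in each ligand (rows), coloured by receptor, filled for the longest protein-coding transcript and open for the exon union, with a grey band between the quartiles of 14048 protein-coding genes. The band is that of the longest transcripts, so it is a background for the filled points only. The filled points of ULBP3 at 2.25 and NCR3LG1 at 1.57 lie right of the band and that of MICB at 0.41 left of it. The open point of PVRL2 lies at 1.87.

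Beside the 8 ligands, related genes were taken from 9 lists with 58 distinct symbols, of which 38 were measured. The NKG2D ligands RAET1G and RAET1E had levels of 12.8 and 3.89 per kb of exon union, above and below the 3 ULBP genes, and RAET1L was not analysed here. With the median coding transcript length both were above them, RAET1G at 17.0 and RAET1E at 18.7 per kb. Among the other nectins, PVRL3 had 134 per kb, PVRL1 43.0 and PVRL4 1.63 per kb of exon union, all lower than PVR and PVRL2. With the median coding transcript length PVRL3 had 1566 per kb and was above both, while PVRL1 and PVRL4 stayed lower. In the B7 family, to which NCR3LG1 belongs, 6 of 9 listed genes were measured. CD276 (B7-H3) had 119 per kb and C10orf54 (VISTA) 69.3, beside 66.3 for NCR3LG1, whereas ICOSLG had 5.17, CD274 (PD-L1) 3.18, VTCN1 1.64 and PDCD1LG2 (PD-L2) 1.16. Thus NCR3LG1 was, with CD276 and C10orf54, among the 3 highest B7 genes measured.

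Ligands of other activating or adhesion receptors covered a wide range. BAG6, which encodes another ligand of NKp30, had 214 per kb, 84.8% of protein-coding genes being lower. PDGFD, a ligand of NKp44, had 115 per kb, CD58, the partner of CD2, 106, and CADM1, the partner of CRTAM, 66.3. NID1 and CLEC2B were lowest of those named, at 25.3 and 8.69 per kb. For the inhibitory side, 9 of 11 listed genes were measured. CDH2, a ligand of KLRG1, had 89.7 per kb, HLA-E, the ligand of NKG2A, 70.3 and CLEC2D 16.4, and HLA-B and HLA-F were lowest at 1.83 and 1.13. The search for copies of exonic windows covered the 8 ligands only. How well reads of these HLA genes could be assigned was therefore not examined. Of 5 genes for proteins that cut or process ligands at the cell surface, all were measured. PDIA6, which acts on MICA before its release, had 850 per kb, and the sheddases ADAM9, ADAM10 and ADAM17 had 339, 164 and 106, while MMP14 had 10.04. The level of every NKG2D ligand was below that of each of the 3 ADAM genes. Of the receptors of the 8 ligands, 6 of 7 listed genes were not analysed here, and the seventh was CD226, given above. The list also holds TIGIT, CD96 and PVRIG, so the grouping by receptor used here is not complete.

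**Figure D4:**
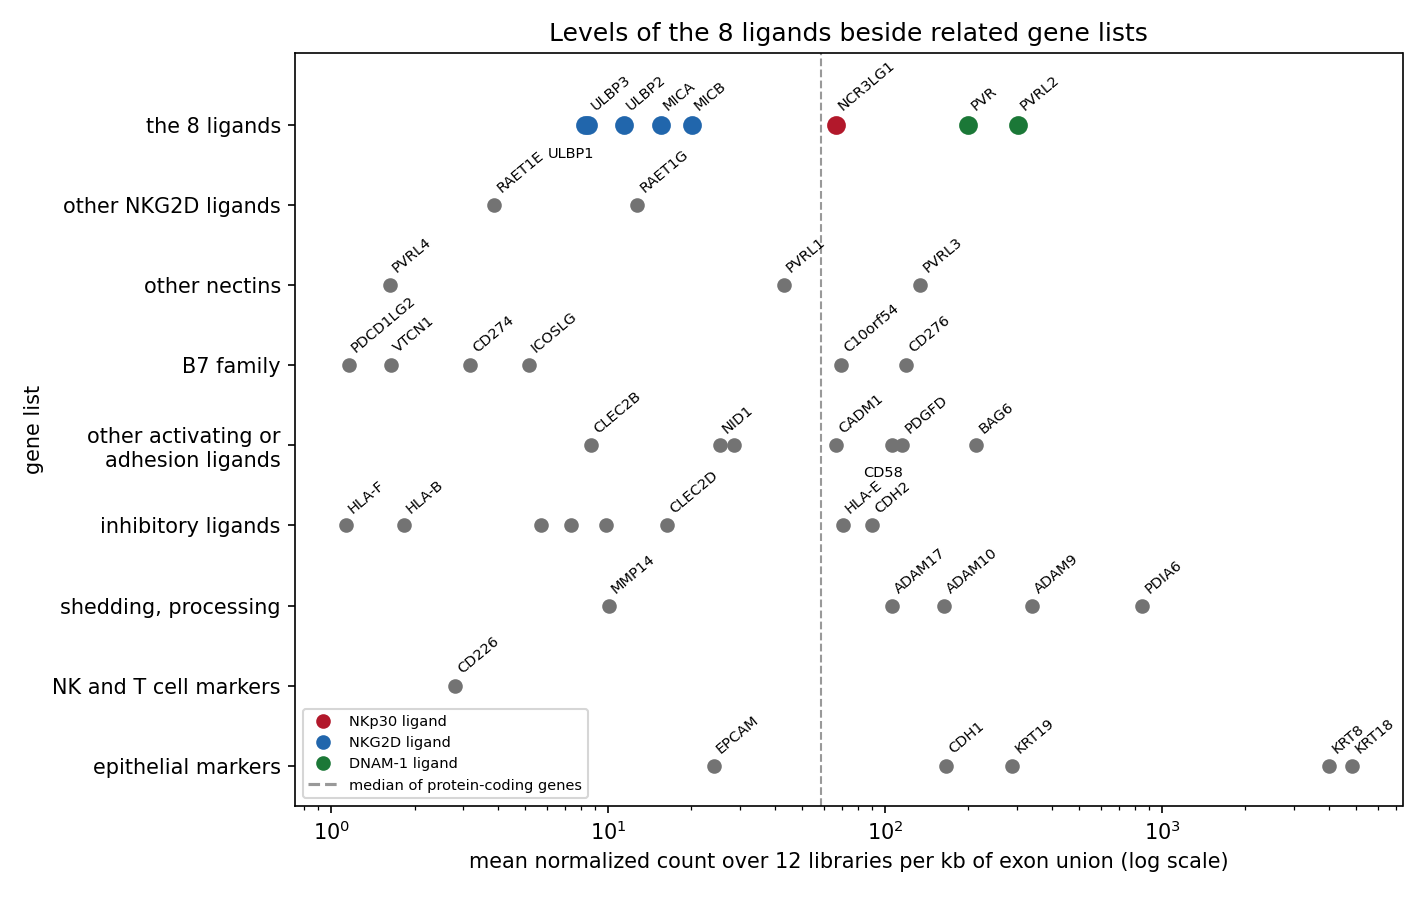
Level per kb of exon union (x axis, log scale) for the 8 ligands, coloured by receptor, and for the measured genes of related lists that are reported (grey, labelled where named here), 1 row per list, with the median of protein-coding genes as a dashed line. The NKG2D ligands lie between 8.24 and 20.01, left of the line, and NCR3LG1, PVR and PVRL2 lie right of it.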

How the data were processed

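Total RNA, treated with DNase and depleted of ribosomal RNA, was made into stranded libraries from A549 cells (6 libraries of siYTHDC1 and 6 of siSCR, grouped by their labels). The authors used STAR for alignment (hg19), HTSeq for gene counts on an older GENCODE annotation, and DESeq2, whose model also held a term for the batch of sequencing.

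The signal analysed is the authors' mean normalized count over all 12 libraries, 1 deposited value per gene. The other deposited columns hold the authors' comparison of siYTHDC1 with siSCR (fold change, its error, a statistic and p-values). They were not used, no value per library was used, and no test between groups was run. A sequencing batch cannot be examined in a pooled mean.

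Gene IDs without version were matched to GENCODE release 44 mapped to GRCh37, the same build (21798 of 22564, 96.6%). This release gave lengths, coordinates and transcripts. It is later than the one the authors counted on, so exons added in between could lengthen a gene without adding counts. How far this changed the levels per kb and their order was not tested. A level per kb is the mean divided by the merged exon length times 1000. Exonic windows of 150, 75 and 50 bases were searched exactly in the GRCh37 primary assembly. The search was tested on made-up sequence with planted copies. Coding sequences were aligned end to end with Biopython 1.88 (match 2, mismatch -1, gap opening -5, extension -1), in place of proteins. Python 3.11.15, numpy 2.4.6 and matplotlib 3.10.9 were used.

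The 8 genes and the 9 lists were chosen with earlier results of these data known. All 8 were named. Of each list, the 4 highest and the 2 lowest per kb were named, and every gene of lists with 6 entries or fewer, except 1 gene of the inhibitory list that is not reported here. Alternatives were other gene lengths, the sum over rows of a symbol, other rankings, shorter windows and the exon union for words.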

Additional observations from a re-analysis of the deposited data

How the results depend on the processing

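No paired analysis was possible because a pooled mean gives no value per library, and for the same reason no library could be left out. Values within a factor of 1.5 of the reported one were counted as kept. The span from PVRL2 to ULBP1, 36.5-fold per kb of exon union, was 144-fold with the median coding transcript length, while the longest transcript kept it. The median share of windows with a copy, 0 at 150 bases, was 2.86% at 75 bases and 8.07% at 50 bases. The ratio of MICB to MICA, 1.29 per kb, turned to 0.88 with the longest transcript, 0.46 with the median coding transcript and 0.94 without division by length. That of ULBP2 to ULBP3 turned from 1.345 to 0.83 with the median coding transcript and to 0.58 without division by length. Without that division, chosen after seeing the data, PVRL2 to PVR turned from 1.51 to 0.54 and ULBP3 to ULBP1 from 1.03 to 1.00 (0.99904). Of single genes, 18 of 24 levels, 11 of 16 percentiles, 7 of 8 word densities and 2 of 16 window shares were kept. Many of the kept levels and word densities could not change. The sum over rows was fixed because each symbol had 1 row. The other lengths equalled the exon union for NCR3LG1, ULBP1 and ULBP2, as did the longest transcript of ULBP3. These genes also had the same word density under both measures. Where the length did differ, the levels of MICB and that of PVRL2 with the longest transcript were kept, and the other levels moved. Of 21 ratios between neighbours in the order, 6 were kept, 8 moved and 7 reversed. The spread between libraries and the counting error of low genes such as ULBP2 are unknown from these values.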

Other observations

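CD226, which encodes the receptor of PVR and PVRL2 and is known from lymphocytes, had a mean normalized count of 38.3, above the 26.4 of ULBP1 and of ULBP3. Over its exon union of 13659 bases this was 2.81 per kb, below the level of each of the 8 ligands. With the median coding transcript length CD226 had 32.8 per kb, above MICB at 23.2 and the 3 ULBP genes.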
